A study of Mus musculus with 12 samples.

Results

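The transcriptome of G1E-ER4 cells given SREBP2 alone was compared directly with that of cells given β-estradiol (EST) alone. The members of this comparison were the 3 SREBP2 libraries and the 3 Vector+EST libraries, which are 6 of the 12 libraries sequenced, and the comparison covered all genes whose counts passed a low-count filter, 11177 of the 17210 in the deposited table. G1E-ER4 is a mouse erythroid progenitor line that lacks its own GATA1 and carries GATA1 fused to the ligand-binding part of the estrogen receptor, so EST switches GATA1 activity on. SREBP2 cells were transduced for 24 h with a retrovirus carrying the active fragment of SREBP2 (amino acids 1 to 468) and were labelled untreated, although the protocol names a vehicle. Vector+EST cells were transduced for 24 h with the empty retrovirus and then received EST for 6 h, at 500 nM by the sample protocol and 200 nM by the series design. All 6 libraries came from the same line, labelled with the strain C57BL/6J, so every one of them carried the GATA1 fusion. The other 6 libraries, Vector and SREBP2+EST, did not enter the difference but were fitted together with these 6, so they shared in the estimate of the spread behind each p-value, and their levels appear below for reference. Both the transgene and the hormone differed between the compared groups, so this contrast by itself cannot split a difference between the single treatments. Vector levels, where given, show where each group lay beside cells with the empty retrovirus and no EST.

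SREBP2 is a transcription factor held in the endoplasmic reticulum membrane until sterols run low, when proteases free its amino-terminal part to enter the nucleus and raise the genes of cholesterol synthesis and uptake. The fragment used here lacks the membrane anchor and so escapes this control. GATA1 is the master factor of red cell and megakaryocyte maturation. It replaces GATA2 at shared sites, raises heme, globin and membrane genes and ends proliferation. The study asked how SREBP2 and GATA1 activity relate in erythroid cells, and the comparison asks where the programs that each sets up on its own differ.

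Expression levels are in CPM, the counts of a library brought to a common size with edgeR's TMM factors, and values of 3 libraries always follow the order of libraries 1, 3 and 5, the numbers in the headers of the count table. Differences are log2 differences, SREBP2 minus Vector+EST, with standard errors (SE) or 95% intervals from edgeR's quasi-likelihood test. P-values are edgeR's, adjusted by the Benjamini-Hochberg method over all 11177 genes, and a gene is called higher or lower where that value is under 0.05. Total counts were nearly level, from 18700893 to 19112334 in the 6 libraries, and the detection floor of 3 counts corresponded to 0.155 to 0.163 CPM. The labels also give the cell type as embryonic stem cells. The 7 embryonic stem cell markers in the table summed to at most 0.65 CPM in these 6 libraries, while the 11 erythroid markers summed to between 6779 and 7841 CPM in SREBP2 and between 7201 and 7277 CPM in Vector+EST.

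Some libraries stood apart. The chi-square statistic per gene, near 1 for libraries that differ by counting error alone, was 7.7 and 10 between SREBP2 library 1 and libraries 3 and 5 of its group, but 2.55 between those latter libraries and 2.08 to 3.22 within Vector+EST. By the median absolute log2 difference over genes, SREBP2 library 1 lay 0.12 and 0.138 from its own group but 0.083 and 0.0979 from SREBP2+EST libraries 2 and 5. SREBP2+EST library 1 lay 0.106 from both libraries of its own group but 0.0643 and 0.0799 from SREBP2 libraries 3 and 5. Both libraries thus lay nearer to these libraries of the other group than to any of their own. The labels were kept as deposited, and whether the labels had been exchanged was not tested. In Vector+EST library 5 the 13 fibroblast markers summed to 37.8 CPM against 6.53 and 6.70 CPM in the other Vector+EST libraries and 10.5 to 17.4 CPM in SREBP2, though the sums were also 24.3 to 41.9 CPM in SREBP2+EST and 21.2 to 22.3 CPM in Vector. What set these libraries apart was not tested. List counts that moved by over 1.5 times without SREBP2 library 1, or without it and Vector+EST library 5 together, are given with the value without them. Shares over all genes beside list counts are always those of the full comparison. Without SREBP2 library 1, 1859 genes were higher and 1375 lower of 11328 tested. Without both libraries, 1767 were higher and 1316 lower of 11290.

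The transcriptomes of SREBP2 and Vector+EST lay close together, and the genes that separated them strongly were almost all higher in SREBP2. The 9 pairs of an SREBP2 and a Vector+EST library differed by a median absolute log2 difference of 0.137 to 0.156, beside 0.0742 to 0.138 within SREBP2, a range that these pairs meet only because of SREBP2 library 1, and 0.068 to 0.0837 within Vector+EST. Either group lay much farther from Vector, at 0.377 to 0.441 for SREBP2 and 0.377 to 0.391 for Vector+EST. The plot of distances between libraries shows this order, with the pairs that hold SREBP2 library 1 marked.

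**Figure D1:**
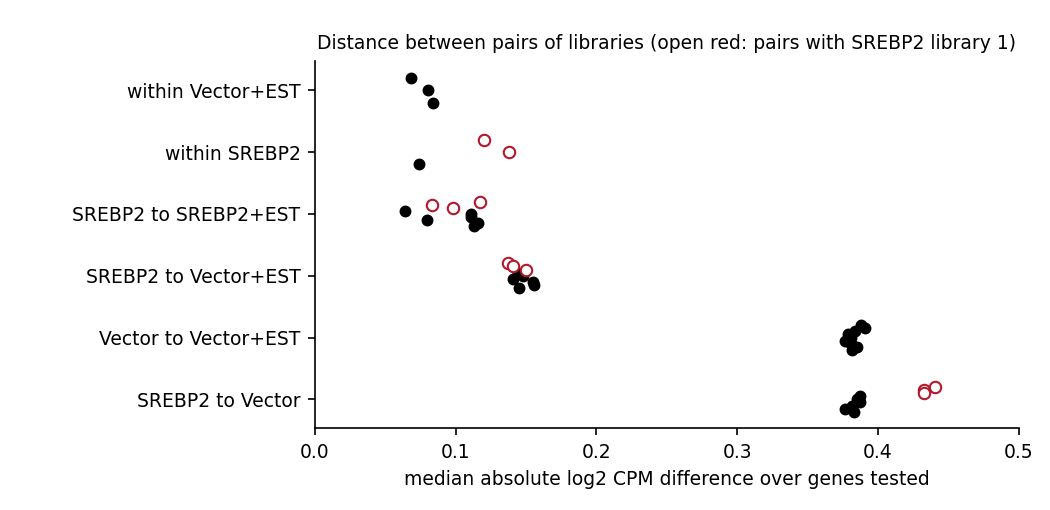
Median absolute log2 CPM difference over the genes tested (horizontal axis) for pairs of libraries, grouped by row, each point being a pair and open red points the pairs with SREBP2 library 1. SREBP2 and Vector+EST libraries lay 0.137 to 0.156 apart, and both lay at least 0.377 from the Vector libraries.

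Of the 11177 genes, 2617 (23.4%) differed between SREBP2 and Vector+EST, 1615 higher in SREBP2 (14.4%) and 1002 lower (8.96%). The higher side was the larger in size. By over 1.5-fold, 619 genes were higher (5.54%) and 26 lower (0.233%), and by over 4-fold 121 were higher and 6 lower. Among the 6, Col1a1, Igfbp7, Fn1 and Lrp1 were no longer called without Vector+EST library 5 (adjusted p = 0.475 to 0.561). The median log2 difference was 0.435 among the higher genes and -0.197 among the lower, and 77.1% of the lower genes differed by less than 1.2-fold, against 28.5% of the higher. Groups did not overlap for 2523 of the 2617 genes called, and for 35.5% of all genes tested. The split depended on the scaling, since library totals without TMM gave 1365 higher and 1868 lower genes, 42.2% higher against 61.7%. In a fit of the 6 compared libraries alone 2057 genes were called. The lower count of 1002 was 591 without SREBP2 library 3, and 654, 617 and 647 without Vector+EST library 1, 3 or 5. The count of 26 genes lower by over 1.5-fold was 46, 15 and 16 without SREBP2 library 1, 3 or 5 and 18 without Vector+EST library 5. The plot of all genes shows the long upper side.

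**Figure D2:**
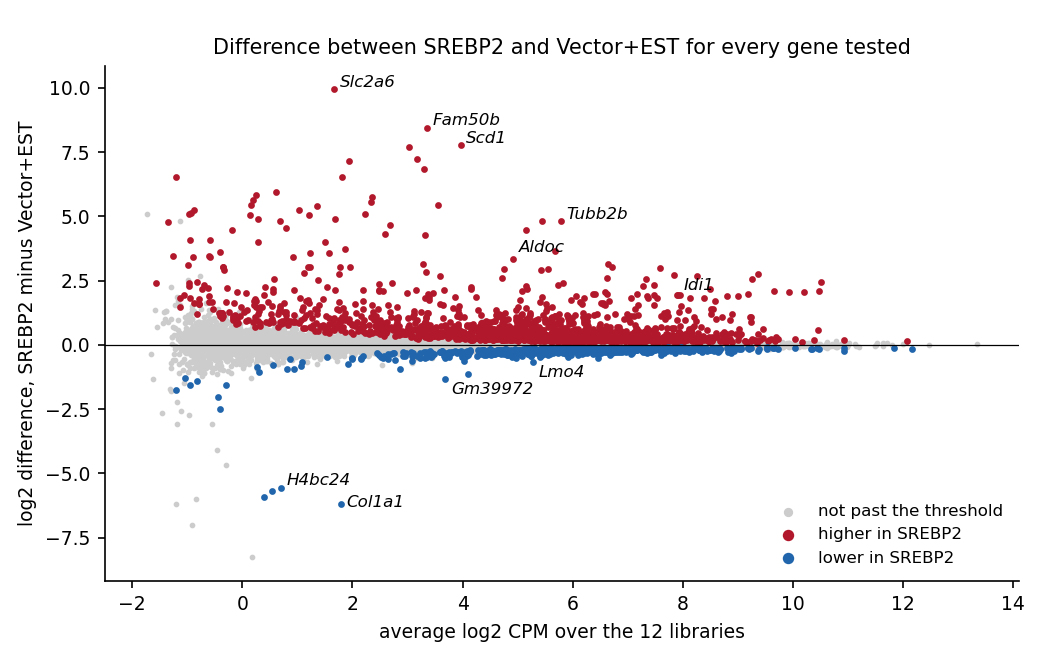
Log2 difference, SREBP2 minus Vector+EST (vertical axis), against average log2 CPM over the 12 libraries (horizontal axis) for the 11177 genes tested, with the 1615 higher genes in red, the 1002 lower in blue and the others in grey. Differences above 4-fold (2 on the vertical axis) were seen for 121 higher and 6 lower genes.

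The genes of cholesterol synthesis were higher in SREBP2 almost without exception. Mouse Srebf2 (Entrez 20788), the cell's own SREBP2 gene, stood at 815, 837 and 797 CPM in SREBP2 and 436, 432 and 456 CPM in Vector+EST, a log2 difference of 0.89 ± 0.03 (SE; adjusted p = 4.63e-12). The study measured human SREBP2 mRNA in transduced cells and made a FLAG-tagged human fragment, but its methods name no species for the fragment of these libraries, so how far its reads entered the count of the mouse gene is not known. Of the 10 enzymes that lead from acetyl-CoA units through mevalonate to squalene, 9 were higher, and of the 12 that lead from squalene to cholesterol all 12 were higher, each of the 21 by over 1.5-fold, beside 14.4% of all genes tested. The medians of these lists were 1.95 and 1.91, against -0.004 over all genes tested, and the same 21 members were higher without SREBP2 library 1 and without that library and Vector+EST library 5 together. The exception was Ggps1, which makes the geranylgeranyl chain for protein prenylation and lies on a side branch, with a log2 difference of 0.01 (95% interval -0.11 to 0.14).

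Hmgcs1, the synthase of HMG-CoA, was at 1730, 1801 and 1826 CPM in SREBP2 and 432, 418 and 425 CPM in Vector+EST. No library of SREBP2 came near those of Vector+EST, and the difference was 2.07 ± 0.04 (adjusted p = 5.01e-16). Mvd, which decarboxylates mevalonate diphosphate, reached 495, 508 and 531 against 74.5, 79.1 and 88.3 CPM (2.67 ± 0.05, adjusted p = 2.36e-15). The kinase before it, Pmvk, had the largest difference of this list, 370.2, 394 and 424 against 60.4, 56.8 and 64.4 CPM (2.71 ± 0.06).

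Past squalene, Sqle, the epoxidase that acts on squalene, stood at 453, 489.8 and 482 CPM against 209.8, 204 and 211 CPM in Vector+EST (1.19 ± 0.05, adjusted p = 4.66e-12). Lss, which closes the sterol rings, was at 1013, 1064 and 1087 against 175, 172 and 184 CPM (2.57 ± 0.04). Tm7sf2, a sterol reductase, differed most of the 12, with 169, 182 and 187 CPM against 21.2, 18.9 and 20.5 CPM (3.15 ± 0.06, adjusted p = 1.69e-15). Lbr, a nuclear envelope protein that can carry out the same reduction, differed least (0.65 ± 0.04, adjusted p = 5.77e-10). The spread between libraries was small beside these differences, as the plot of sterol and fatty acid genes shows.

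**Figure D3:**
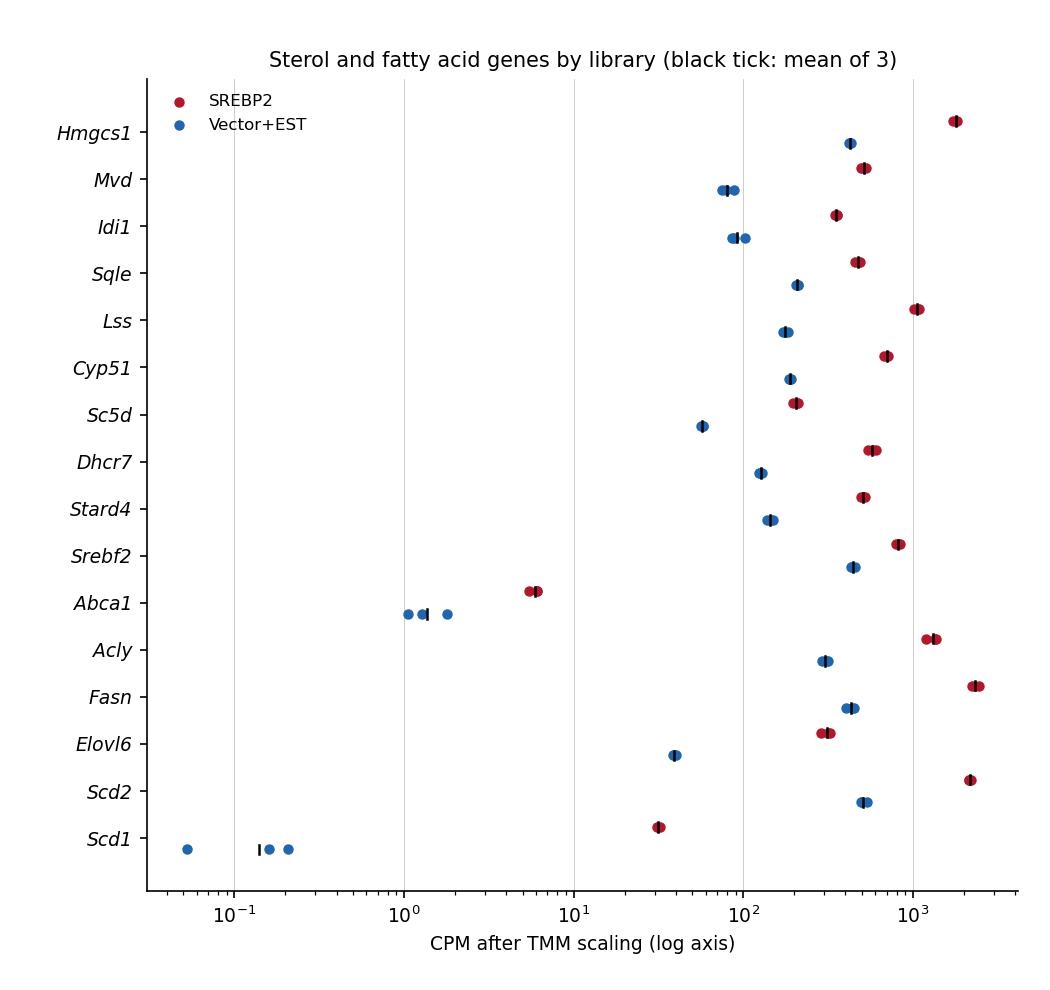
CPM after TMM scaling (horizontal log axis) of 16 sterol and fatty acid genes in the 3 SREBP2 libraries (red) and 3 Vector+EST libraries (blue), with black ticks at the means. For every gene drawn the SREBP2 libraries lay above the Vector+EST libraries, from Srebf2 (816 ± 20.1 against 442 ± 13 CPM) to Scd1 (31.6 ± 0.623 against 0.139 ± 0.0789 CPM).

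SREBPs bind sterol response elements in promoters, so the proximal promoters were searched for the letters TCACNCCAC (N any base, both strands, its ends able to share bases with the other motifs searched). RefSeq promoters on GRCm38.p6, 250 bases before to 50 after a start, were at hand for 9059 of the genes tested and for 17 of the 22 cholesterol synthesis genes. The letters were found in 126 of 11522 promoters (1.09%), in 33 of 1738 promoters of higher genes (1.90%), in 10 of 980 of lower genes (1.02%) and in 1 of 20 promoters of the cholesterol synthesis genes. That promoter was the one of Hmgcs1. Among genes higher by over 4-fold, 2 of 131 promoters held them (1.53%), 1 of these being that of Hmgcs1 and the other that of Aldoc, a glycolytic aldolase described further below. Both windows lie on the plus strand, Hmgcs1 at chr13:119690158-119690278 with the match starting 137 bases before the annotated start and Aldoc at chr11:78322937-78323057 with the match starting 80 bases before it. They are shown because these genes pair a match with a large difference, and capitals mark the match.

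Hmgcs1: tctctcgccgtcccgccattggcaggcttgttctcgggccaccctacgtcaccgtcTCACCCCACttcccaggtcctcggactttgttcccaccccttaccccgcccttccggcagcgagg
Aldoc: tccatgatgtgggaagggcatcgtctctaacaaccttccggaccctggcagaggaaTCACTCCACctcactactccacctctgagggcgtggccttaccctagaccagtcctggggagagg

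The matches are descriptions of sequence and not bound sites, and a promoter without these letters can hold other forms of the element. For the other motifs searched the shares among higher genes and among all genes were 9.44% and 9.96% for the E-box CACGTG, 7.48% and 7.02% for the GATA motif AGATAA, 5.18% and 3.82% for the CACCC box CCACACCC, and 4.14% and 3.45% for TGAGTCA. Lower genes held AGATAA in 5.41%, CACGTG in 10.6%, CCACACCC in 3.67% and TGAGTCA in 2.04% of promoters.

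Genes of sterol sensing and uptake were also higher in SREBP2 in part. Of 11 members tested in the list of sterol sensing and uptake, 7 were higher and 1 lower (14.4% and 8.96% over all genes), with a median of 0.89. Stard4, a carrier of cholesterol between membranes, stood at 494, 521 and 508 CPM in SREBP2 and 145, 149 and 137 CPM in Vector+EST (1.82 ± 0.05, adjusted p = 2.21e-14). Lrp8, a receptor of apolipoprotein E and reelin, was at 43, 49.7 and 49.7 against 19.5, 17.9 and 18.9 CPM (1.34 ± 0.09, adjusted p = 1.46e-08). Both groups lay below its Vector level of 72.8 ± 1.78 CPM (SD, n = 3).

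The sensors of the pathway differed little. Scap, the escort of SREBPs to the Golgi, was the lower member (-0.14, 95% interval -0.24 to -0.05, adjusted p = 0.0326), a call lost without SREBP2 library 1 or 3 or Vector+EST library 1 or 5 (adjusted p = 0.0813 to 0.0995). Insig2, which retains SREBPs in the endoplasmic reticulum, had a log2 difference of -0.02 (95% interval -0.16 to 0.13). Its relative Insig1 had at most 2 counts in any of the 6 libraries and was not tested. Srebf1, the sister factor with a preference for fatty acid genes, was higher by 0.29 ± 0.05 (adjusted p = 0.000198).

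Among 7 tested genes of sterol efflux and storage, 2 were higher and none lower, and 3 were higher without SREBP2 library 1, beside 14.4% of all genes higher. Abca1, the pump that loads cholesterol onto apolipoprotein, was at 5.46, 6.12 and 6.08 CPM in SREBP2 and 1.8, 1.05 and 1.27 CPM in Vector+EST (2.09 ± 0.18, adjusted p = 1.42e-07). Both groups lay below its Vector level of 10.2 ± 0.555 CPM (SD, n = 3). Npc2, which hands cholesterol out of lysosomes, was at 348, 317 and 331 against 236, 232 and 232 CPM (0.51 ± 0.04). Its partner Npc1 had a log2 difference of -0.02 (95% interval -0.20 to 0.15) and Soat1, which esterifies cholesterol, -0.09 (-0.52 to 0.34). Abcg1, another exporter, had at most 2 counts and was not tested.

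The fatty acid genes were higher in SREBP2 for 15 of 18 tested members and lower for none (median 1.04), beside 14.4% higher and 8.96% lower over all genes. Acly, which makes cytosolic acetyl-CoA from citrate, was at 1197, 1369.7 and 1347 CPM against 314, 290.1 and 309.5 CPM (2.10 ± 0.06). Fasn, the fatty acid synthase, reached 2215, 2447 and 2321 against 449, 405 and 439 CPM (2.43 ± 0.05, adjusted p = 4.35e-15). Elovl6, which lengthens palmitate, stood at 288, 325 and 316 CPM and 40.3, 38.8 and 38.6 CPM (2.98 ± 0.06). All 3 genes were over 4-fold higher, with no overlap between the groups.

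The desaturases differed in their levels in Vector+EST. Scd2, a stearoyl-CoA desaturase, was at 2132, 2201 and 2131 CPM against 499, 492 and 535 CPM (2.08 ± 0.04). Its close paralogue Scd1 had 585, 595 and 582 counts in SREBP2 and 4, 1 and 3 counts in Vector+EST, a ratio of 227 (95% counting interval 115 to 526), and its Vector level was 0.188 ± 0.0592 CPM (SD, n = 3). Reads of the paralogues may be shared where they are identical. Fads1 and Fads2, which desaturate polyunsaturated chains, were higher by 1.07 ± 0.04 and 1.01 ± 0.04. Their Vector levels, 319.7 ± 3.88 and 473 ± 12.1 CPM (SD, n = 3), lay near SREBP2 at 350.3 and 434 CPM. Vector+EST was lower, at 167 and 215 CPM. Gpam, which starts triglyceride and phospholipid assembly, had a log2 difference of -0.02 (95% interval -0.13 to 0.09).

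The largest differences went beyond lipid genes. Under the rule that a named gene have an average log2 CPM of at least 3, the 10 largest rises of SREBP2 over Vector+EST included Fam50b, Scd1, Ppef1, Prune2, Lmtk3, Myh7b, Tubb2b, Ppfia3 and Tlcd3b, with groups that did not overlap. Fam50b (Entrez 108161, chr13:34734850-34747622) had 353, 382 and 411 counts in SREBP2 and 0, 1 and 2 counts in Vector+EST, a ratio of 393 (95% counting interval 134 to 1908). Ppef1, a protein phosphatase on the X chromosome, had 268, 301 and 323 counts against 1, 3 and 0, a ratio of 229 (89.3 to 844). Both were close to silent in Vector+EST.

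Tubb2b, a beta-tubulin best known from neurons, was at 103, 111 and 116 CPM against 3.45, 3.76 and 4.51 CPM (4.81 ± 0.08, adjusted p = 5.01e-16). Myh7b, a slow myosin heavy chain whose intron holds Mir499, was at 73.5, 93.8 and 95.7 against 3.04, 3.71 and 2.44 CPM (4.83 ± 0.16). Lmtk3, a neuronal kinase, was at 24.7, 24.5 and 21.5 against 0.619, 0.732 and 0.265 CPM (5.43 ± 0.16). Of the 121 genes higher by over 4-fold, 56 were under 0.5 CPM in every Vector+EST library. Slc2a6, a lysosomal hexose transporter, was at 0 counts in all 3 of those libraries and at 110, 119 and 131 counts in SREBP2, at least 41.1-fold higher against the floor of 3 counts per library.

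Among the genes higher by over 4-fold, 4 pairs lay within 20 kb of each other on GRCm38.p6. Lss and Spatc1l were 4854 bases apart on chromosome 10, Fstl3 and Palm 10942 bases apart on the same chromosome, and Ppfia3 and Lin7b 872 bases apart on chromosome 7. Stat2 (chr10:128270498-128292853) and Apof (chr10:128268699-128271250) overlap. Stat2, the interferon signalling factor, was at 159, 158 and 157 CPM against 38.2, 36.5 and 39.5 CPM (2.05 ± 0.04), and reads from the overlap cannot be assigned to either gene where strand is not used.

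On the lower side most differences were small, and few genes passed 1.5-fold. By the same rule the 10 largest falls were Gm39972, Gm46620, Lmo4, Gm52787, Rnf113a1, Hoxc5, Six5, Sfxn2, Slc2a1 and Dscc1, and they ran from 1.4-fold to 2.51-fold lower. Gm39972, a predicted gene, was at 6.41, 6.99 and 4.88 CPM in SREBP2 and 15.2, 15.2 and 15.6 CPM in Vector+EST (-1.33 ± 0.11, adjusted p = 1.93e-07). Lmo4, a LIM-only cofactor, was at 41.3, 33.6 and 31.1 against 54.7, 54.7 and 57.4 CPM (-0.65 ± 0.09). Slc2a1, the main glucose transporter of red cell precursors, was at 27.8, 28.7 and 27.1 against 39.3, 39.2 and 38.9 CPM (-0.49 ± 0.06, adjusted p = 2.26e-05). By the rule itself, the 3 SREBP2 libraries lay below all 3 Vector+EST libraries in each of these genes.

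Of the 26 genes lower by over 1.5-fold, 11 were no longer called without Vector+EST library 5, beside 393 of all 1002 lower genes. Not all of the 11 were high in that library alone. Got1l1, for example, was at 0.567, 0.993 and 0.69 CPM in Vector+EST. Col1a1, a fibroblast collagen, was at 0, 0 and 13.4 CPM in Vector+EST and 0.053, 0.0542 and 0.0542 CPM in SREBP2, so 1 library made the difference (adjusted p = 0.033, and 0.0892 to 0.501 without Vector+EST library 5 or SREBP2 library 3 or 5). Fn1 and Igfbp7 showed the same pattern, at 0.155, 0.0523 and 6.31 CPM and 0.103, 0.0523 and 4.3 CPM in Vector+EST, and lost their calls without the same libraries (adjusted p up to 0.561). H4bc24, a histone H4 gene named after its values were seen, kept its call without Vector+EST library 5, at 0, 0 and 0.217 CPM in SREBP2 and 4.07, 3.24 and 3.77 CPM in Vector+EST (adjusted p = 7.11e-05, and 0.000332 without that library). Most replication-dependent histone transcripts lack a poly(A) tail, and these libraries were selected with oligo(dT), so its values cover only the tailed part.

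The core GATA factors differed modestly and in both directions. Of 15 tested GATA factors and partners, 4 were higher and 4 lower in SREBP2, with a median of -0.01, beside 14.4% higher and 8.96% lower over all genes. The list had 6 higher and 3 lower members without SREBP2 library 1. Gata1 reads stood at 511, 585 and 575 CPM in SREBP2 and 467, 419.8 and 471 CPM in Vector+EST (0.30 ± 0.07, adjusted p = 0.00366), and the count does not separate the fusion transgene from what remains of the disrupted gene. Gata2, the factor of earlier progenitors, was at 128, 133 and 132 CPM against 156, 151 and 160 CPM (-0.25 ± 0.05, adjusted p = 0.000766). For both genes SREBP2 and Vector+EST lay far below the Vector level, which was 1769 ± 17.1 CPM for Gata1 and 644 ± 17.7 CPM for Gata2 (SD, n = 3). Runx1, a factor of blood stem cells and megakaryocytes, was lower by 1.25-fold (-0.32 ± 0.07, adjusted p = 0.00246).

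Spi1 (PU.1), the myeloid factor that opposes GATA1, was the partner with the largest difference, at 66.8, 75.8 and 79.1 CPM in SREBP2 and 36.5, 40.5 and 38 CPM in Vector+EST (0.95 ± 0.07, adjusted p = 1.78e-08). Lyl1, a stem cell paralogue of Tal1, was at 16.4, 29.8 and 30.3 against 18.9, 14 and 17.6 CPM, where SREBP2 library 1 fell among the Vector+EST libraries. Its difference of 0.60 ± 0.17 (adjusted p = 0.0206) became 0.84 without that library (adjusted p = 3.16e-06), and the call was lost without SREBP2 library 3 or 5 or Vector+EST library 3 (adjusted p = 0.104 to 0.105). Cbfa2t3, the corepressor ETO2 of the same complex, was at 81.5, 122 and 117 against 72.4, 69.8 and 82.5 CPM (0.51 ± 0.13, adjusted p = 0.00769, and 0.0502 without SREBP2 library 3), again with library 1 inside the other group. Ldb1, which bridges enhancers and promoters in that complex, was called lower (-0.18, adjusted p = 0.0477), but not without SREBP2 library 1 or any single library of Vector+EST or Vector or SREBP2+EST library 5 (adjusted p = 0.0507 to 0.197).

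Several factors gave no call. Tal1 had a log2 difference of 0.04 (95% interval -0.16 to 0.24), and Zfpm1 (FOG1), the partner GATA1 needs for most of its targets, -0.06 (-0.14 to 0.02). Klf1, the erythroid Krüppel-like factor, had -0.01 (-0.17 to 0.15), and Kit, the receptor of stem cell factor, -0.07 (-0.17 to 0.02). Without SREBP2 library 1, Tal1 had 0.17 (adjusted p = 0.0721), and it was called higher without that library and Vector+EST library 5 (0.21, adjusted p = 0.0345). Myc, at 107, 166 and 164 CPM against 128, 122 and 128 CPM, had 0.21 (-0.10 to 0.52) in all libraries, and without SREBP2 library 1 it was 0.39 higher (adjusted p = 0.0125).

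Nfe2l1, Maff and Nfe2 had the largest differences among 25 erythroid maturation factors, of which 11 were higher and 1 lower (median 0.10), beside 14.4% and 8.96% of all genes. The lower members were 2 without SREBP2 library 1. Nfe2, the large subunit of NF-E2, was at 201, 268 and 273 CPM in SREBP2 and 102, 94.3 and 108 CPM in Vector+EST (1.29 ± 0.11, adjusted p = 1.12e-07). The lowest SREBP2 value was again that of library 1, and still above every Vector+EST library. Nfe2l1, a relative that drives proteasome genes and senses endoplasmic reticulum cholesterol, was at 263, 271 and 254 against 68.4, 73.1 and 71.6 CPM (1.89 ± 0.04, adjusted p = 5.93e-15). The small Maf proteins, which pair with these factors, were higher as well, Maff by 1.64 ± 0.17, Mafg by 0.68 ± 0.04 and Mafk by 0.26 ± 0.05. Bach1, the heme-sensing partner of the same small Mafs, was higher by 0.32 ± 0.05. Nfe2l2 (NRF2), the oxidative stress member of the family, had a log2 difference of -0.02 (95% interval -0.14 to 0.09). Bcl11a, a repressor of fetal globin genes, was the lower member (-0.28 ± 0.08, adjusted p = 0.0245), a call lost without SREBP2 library 1 or Vector+EST library 3 or 5 (adjusted p = 0.0508 to 0.0715).

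Heme and globin genes were nearly level between the treatments. Of 21 tested, 2 were higher and 1 lower, beside 14.4% and 8.96% of all genes, with a median of -0.04. Without SREBP2 library 1 there were 3 higher and none lower, and 4 higher without Vector+EST library 5 as well. Alas2, the first enzyme of erythroid heme synthesis, was at 163, 181 and 185 CPM in SREBP2 and 142, 129.8 and 141 CPM in Vector+EST (0.36 ± 0.06, adjusted p = 0.000201). The major adult globin genes gave no call, with log2 differences of -0.09 for Hba-a1 (95% interval -0.18 to 0.01), 0.01 for Hba-a2 (-0.09 to 0.11) and 0.06 for Hbb-b1 (-0.07 to 0.19). Hbb-b2, a minor adult beta-globin gene, was at 86.1, 118 and 131 against 66, 71.3 and 71.9 CPM (0.68 ± 0.12, adjusted p = 0.000414). Globin genes share reads with near-identical copies, so the values of single genes are uncertain. Slc25a39, a mitochondrial glutathione carrier linked to heme synthesis, was the lower member (-0.14 ± 0.04, adjusted p = 0.0284, and 0.0585 to 0.114 without SREBP2 library 1 or Vector+EST library 3 or 5).

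Among 22 red cell membrane and skeleton genes 8 were higher and 1 lower (median 0.09, 14.4% and 8.96% over all genes), and 10 and 2 without SREBP2 library 1. Add2, the erythroid beta-adducin that caps the spectrin network, was at 302, 419 and 405 CPM against 145, 141 and 149 CPM (1.37 ± 0.11, adjusted p = 1.12e-07). Slc4a1, the anion exchanger band 3, was at 3.39, 5.15 and 3.58 against 2.99, 2.46 and 3.13 CPM (0.50 ± 0.16, adjusted p = 0.0321), both groups far under its Vector level of 67.6 ± 1.82 CPM. The Slc4a1 call was lost without SREBP2 library 3 or Vector+EST library 1 or 3 (adjusted p = 0.0618 to 0.255). Epb41, of the spectrin skeleton, was higher by 0.30 ± 0.04. Slc2a1, named above among the falls, was the lower member. The iron list had 4 higher and 1 lower of 16, beside 14.4% and 8.96% of all genes, and 7 higher and 1 lower without SREBP2 library 1. It was led by Aco1, the cytosolic aconitase that doubles as an iron-responsive regulator (0.52 ± 0.04), and Slc25a37 (mitoferrin), the mitochondrial iron importer (0.46 ± 0.11). Tfrc, the transferrin receptor, had -0.06 (95% interval -0.13 to 0.02). The plot of erythroid genes sets both groups beside the reference levels.

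**Figure D4:**
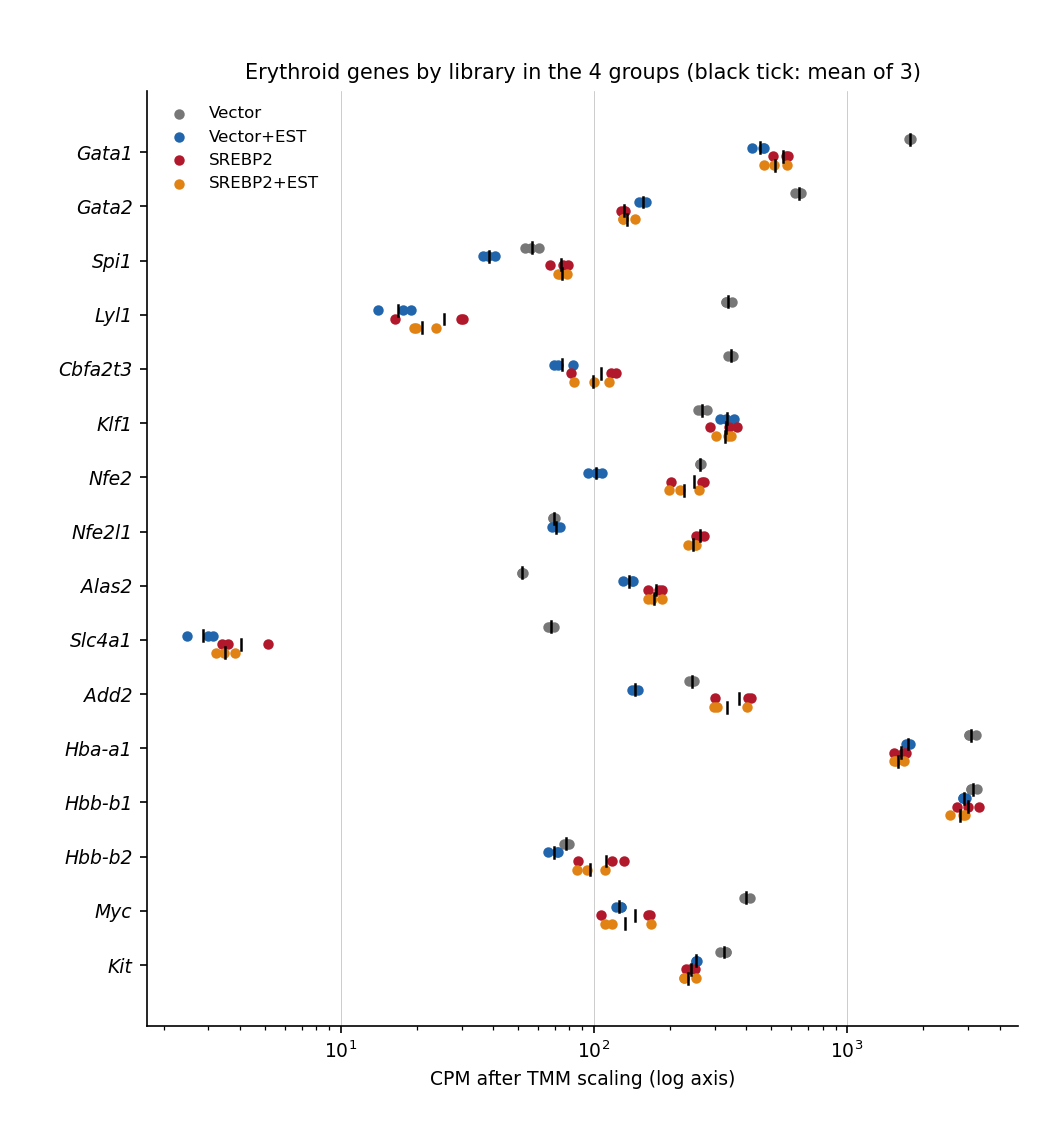
CPM after TMM scaling (horizontal log axis) of 16 erythroid and progenitor genes in the libraries of the 4 groups, with black ticks at the means of 3. For Gata1, Lyl1 and Slc4a1, SREBP2 and Vector+EST lay much nearer each other than Vector, though each gene was called higher in SREBP2. They lay farther apart for Nfe2, Nfe2l1 and Add2.

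The reference groups placed the calls as follows, as a description without a test. Of the 619 genes higher by over 1.5-fold, the Vector mean lay between the SREBP2 and Vector+EST means for 279, below both for 238 and above both for 102. The SREBP2+EST mean lay nearer SREBP2 than Vector+EST for 602 of them (97.3%). Of the 26 genes lower by over 1.5-fold, the Vector mean lay between for 10, below both for 8 and above both for 8, and the SREBP2+EST mean lay nearer SREBP2 for 17 (65.4%). Nfe2 had a Vector mean of 263 ± 1.53 CPM, near SREBP2 at 247 ± 40.6 CPM and above Vector+EST at 101 ± 6.7 CPM (SD, n = 3). Nfe2l1 had a Vector mean of 69.4 ± 0.592 CPM, close to Vector+EST at 71 ± 2.42 CPM and far under SREBP2 at 263 ± 8.77 CPM. Hmgcs1 held an intermediate place, with 749.6 ± 9.6 CPM in Vector.

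Growth and cell cycle genes differed by little. Of 26 genes of the MYC network and the G1 phase, 1 was higher and 6 were lower (median -0.08), beside 14.4% and 8.96% of all genes. Mnt, a repressor that competes with MYC for its partner MAX, was the higher one, at 41.8, 47.1 and 43.9 CPM against 22.2, 22.4 and 22.4 CPM (0.99 ± 0.06, adjusted p = 1.45e-09). Both groups lay below its Vector level of 70.1 ± 3.56 CPM (SD, n = 3). Mxd3, another MAX partner, was the lowest, at 4.13, 4.77 and 4.23 against 6.03, 7.01 and 6.42 CPM (-0.57 ± 0.12, adjusted p = 0.00185). The cyclins of S phase entry, Ccne1 and Ccne2, were both lower, with log2 differences of -0.26 ± 0.05 and -0.33 ± 0.06. Without SREBP2 library 1 the list had 5 higher and 8 lower members. Ribosome biogenesis genes gave 1 higher and 7 lower of 47 (3 and 6 without SREBP2 library 1), where the shares over all genes were 14.4% and 8.96%, with a median of -0.02 and a lowest member, Npm1, at -0.24 ± 0.03. The BCL2 family gave 3 higher of 12 and none lower, beside 14.4% of all genes higher, and 2 higher without SREBP2 library 1 and Vector+EST library 5. Bnip3l, the mitophagy receptor of maturing red cells, was at 0.17 ± 0.03. Bbc3 (PUMA), which promotes cell death, was at 0.23 ± 0.07 (adjusted p = 0.0303), a call lost without SREBP2 library 1 or 5 or any Vector+EST library (adjusted p = 0.0651 to 0.0975). Bcl2l11 (BIM), of the same kind, was at 0.21 ± 0.06 (adjusted p = 0.0133, and 0.051 without Vector+EST library 1).

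A list of 50 genes of the DNA replication fork, written after the comparison had been looked at, had 31 lower and 3 higher members and a median of -0.19, beside 8.96% and 14.4% of all genes. Its differences were small but the groups were tight. Dscc1, part of the loader of the sliding clamp at the fork, was the lowest at 12.9, 10.6 and 11.1 CPM against 17, 16.6 and 14.8 CPM (-0.48 ± 0.09, adjusted p = 0.000969). Mcm6, a subunit of the replicative helicase, was at 349.5, 378 and 379 against 469, 462 and 448 CPM (-0.32 ± 0.05, adjusted p = 7.11e-05). Pcna, the clamp itself, had -0.09 (95% interval -0.21 to 0.02). Without SREBP2 library 1 the list also had 31 lower and 3 higher members.

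Other metabolic and stress lists held single genes with large differences. In glycolysis, 4 of 18 genes were higher and 6 lower (median 0.01, 14.4% and 8.96% over all genes), and Aldoc, whose promoter is printed above, stood far from the rest at 54.1, 55.6 and 58.4 CPM in SREBP2 and 4.9, 5.91 and 5.62 CPM in Vector+EST (3.35 ± 0.08, adjusted p = 1.94e-14). The other calls of that list, such as Pfkl (-0.28 ± 0.07), Hk2 (-0.23 ± 0.05) and Aldoa (0.18 ± 0.04), lay within 1.5-fold. In the integrated stress response, 7 of 22 were higher and 3 lower (10 and 2 without SREBP2 library 1 and Vector+EST library 5), beside the same shares, led by Ddit4, an inhibitor of mTORC1 (6.25, 5.63 and 5.8 against 3.09, 3.76 and 3.87 CPM, 0.72 ± 0.14), and Trib3, a pseudokinase induced by amino acid lack (0.68 ± 0.18, adjusted p = 0.0126, and 0.0573 and 0.0716 without SREBP2 library 5 or Vector+EST library 1). Endoplasmic reticulum chaperones gave 2 higher and 1 lower of 18, beside 14.4% and 8.96% of all genes, but 2 and 5 without SREBP2 library 1. Hspa5 (BiP), the main one, had 0.04 (95% interval -0.08 to 0.16).

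Autophagy genes were higher for 7 of 23 and lower for none (median 0.09), and higher for 8 and lower for 2 without SREBP2 library 1, beside 14.4% and 8.96% of all genes. Map1lc3a, an LC3 protein of the autophagosome membrane, was at 24.8, 24.4 and 22.9 CPM against 10.7, 12.1 and 11.2 CPM (1.08 ± 0.08, adjusted p = 1.73e-08), and the other 6 differed by less than 1.5-fold. Of 14 interferon response genes 4 were higher and 1 lower (4 and 2 without SREBP2 library 1; 14.4% and 8.96% over all genes), with Stat2 as given above, Irf1 at 0.75 ± 0.16 and the deconjugase Usp18 at -0.56 ± 0.12. Among 6 tested targets of the classical estrogen receptor, 2 were higher in SREBP2 and 1 lower, beside the same shares over all genes, and none was lower without SREBP2 library 1 and Vector+EST library 5. The lower one, Nrip1, a corepressor, had a difference of -0.13 ± 0.04 (adjusted p = 0.0438) and lost the call without any 1 of 9 of the 12 libraries (adjusted p = 0.0538 to 0.164). Ctsd, the lysosomal protease cathepsin D, was at 289.8, 366 and 383 CPM in SREBP2 and 124, 119.8 and 125 CPM in Vector+EST (1.49 ± 0.08, adjusted p = 8.71e-10). The plot of gene lists sets these groups side by side.

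**Figure D5:**
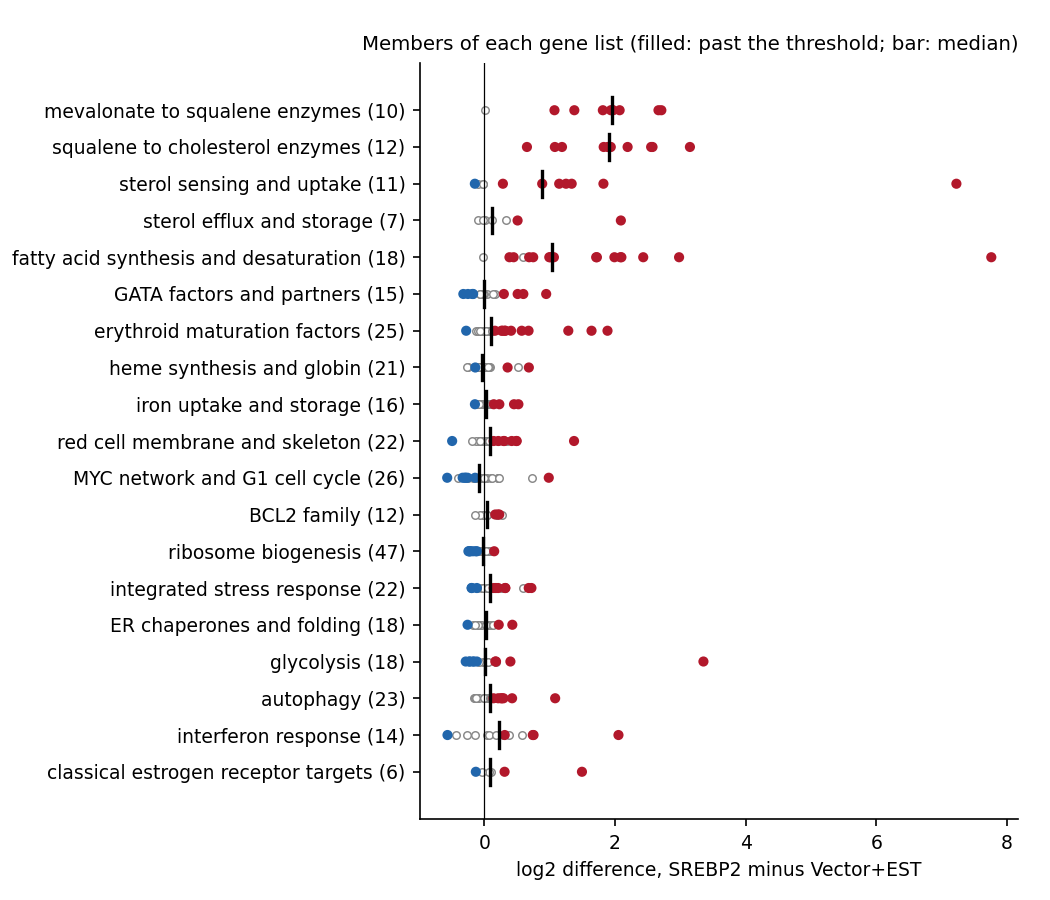
Log2 difference, SREBP2 minus Vector+EST (horizontal axis), of every tested member of 19 gene lists (rows, number tested in brackets), with filled points for genes past the threshold, red higher and blue lower, open points for the others, and a bar at each list's median. The sterol and fatty acid synthesis lists lay to the right, with medians of 1.95, 1.91 and 1.04, and the medians of the erythroid, growth and stress lists lay near 0.

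Some markers of other blood cells were higher in SREBP2 than in Vector+EST. Pf4, the platelet factor, was at 38.8, 51.5 and 52.9 CPM in SREBP2, 5.72, 6.59 and 6.05 CPM in Vector+EST and 9.46 ± 0.575 CPM in Vector (SD, n = 3), with a difference of 2.96 ± 0.13 (adjusted p = 2.41e-11). It was the leading one of 4 higher megakaryocyte markers among 7 tested, the others being Itgb3 (0.79 ± 0.10), Gp5 (0.60 ± 0.15) and Itga2b (0.49 ± 0.16, adjusted p = 0.0319, and 0.0679 to 0.139 without SREBP2 library 3 or 5 or Vector+EST library 1 or 3). Without SREBP2 library 1, 6 of the 7 were higher, beside 14.4% of all genes in the full comparison. Summed over the 14 in the table, these markers came to 118 to 145 CPM in SREBP2 and 66.5 to 72.8 CPM in Vector+EST, with Vector between at 92.7 to 106 CPM. Mast cell and basophil markers were higher for 4 of 8, beside the same 14.4%, led by Cpa3, a granule protease (3.39, 4.12 and 3.85 against 1.8, 2.3 and 1.96 CPM, 0.90 ± 0.14). All 11 in the table summed to 373 to 431 CPM in SREBP2, 338 to 355 CPM in Vector+EST and 528 to 544 CPM in Vector. In bulk RNA, more cells of a type and more RNA per cell cannot be told apart.

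Pdgfrb, a receptor of fibroblasts, was higher in SREBP2 with 87, 156 and 153 counts against 0, 1 and 3 in Vector+EST, a ratio of 102 (95% counting interval 39.5 to 376), while Col1a1, Fn1 and Igfbp7 were at no more than 0.108 CPM in any SREBP2 library. Over all genes 14.4% were higher. Of the myeloid markers 3 passed the filter and 2 were higher, Fcgr3 (1.06 ± 0.22) and Csf3r (0.86 ± 0.26, adjusted p = 0.0284, and 0.0501 to 0.128 without SREBP2 library 3 or 5 or Vector+EST library 1 or 5). Lymphoid markers gave no call among 2 tested, and neural markers 1 of 6, Tubb3 (0.85 ± 0.20, adjusted p = 0.0052, and 0.0503 without SREBP2 library 3). The part of these cell type markers in the other differences was not tested.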

How the data were processed

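mRNA of the G1E-ER4 libraries was selected with oligo(dT), copied with random hexamers and sequenced as single-end reads of 50 bases. The authors deposited estimated counts per gene, not normalized, of which 66.5% were whole numbers. Their processing notes name HISAT2 2.0.4, Bowtie2 2.2.5, RSEM 1.2.12, DESeq2 1.4.5 and the build GRCm38.p6, and the use of strand in counting is not given in the sources used here. The authors' own pairwise comparisons, fold changes with p-values for other pairs of groups, were not used.

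The estimated counts were rounded and filtered (edgeR's filterByExpr, 6033 genes left out), scaled by TMM, and tested with edgeR 4.0.16 in R 4.3.3 by the quasi-likelihood test, with 1 mean per group over all 12 libraries and no block. Groups came from the sample titles and the group names in the column headers. The study's legends speak of independent experiments in general, and the labels do not say whether these libraries came from separate cultures, so p-values measure the spread between them, which may be in part technical. Counting intervals are exact binomial and cover counting error only. The procedure was tested on simulated counts with the same spread per gene in every group. That test does not cover the wider spread within SREBP2 than within Vector+EST. Alternatives included DESeq2 1.42.0 and limma 3.58.1. Gene positions and promoters were taken from RefSeq tables of the same build by Entrez number, and 99.7% of tested genes had a position.

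Named genes were the 10 largest rises and falls with groups that did not overlap, up to 3 highest and 3 lowest members called per list, and a fixed set of pathway genes, joined by further list members for context. Some genes that these rules name are not reported here. The comparison, its lists and its rules were chosen with earlier results of these data known, and 6 lists were added after the comparison had been seen.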

Additional observations from a re-analysis of the deposited data

How the results depend on the processing

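The 21 cholesterol synthesis enzymes and 15 fatty acid genes called higher were called under every alternative that tested them, while counts of lower genes moved. Leaving out 1 library at a time gave 1885 to 3234 genes called, 1294 to 1859 higher and 591 to 1375 lower, and 558 to 673 higher and 15 to 46 lower by over 1.5-fold. Genes lower numbered 1868 with library totals only and 1747 with limma voom and quality weights. Those lower by over 1.5-fold numbered 11 with at least 10 counts in every library, 43 without SREBP2 library 1 and Vector+EST library 5, and 55 with voom. Over 1.2-fold gave 1155 higher and 229 lower, and over 2-fold 347 and 14. Of 108 called genes that the naming rules chose, which leaves out members named for context, 84 kept the call under every alternative and 24 lost it under at least 1. Col1a1 ranged from -6.79 to 3.19 when 1 library was left out, and its sign changed to 3.19 without Vector+EST library 5, alone or with SREBP2 library 1 (adjusted p = 0.501 and 0.507), where counts were near 0.

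List medians that moved were 0.592 for sterol sensing (at least 10 counts), 0.224 for efflux (no filter), 0.06 for erythroid factors and 0.051 for autophagy (library totals), 0.115 for the BCL2 family (voom), and 0.141 for GATA factors, 0.165 for the membrane, 0.146 for the BCL2 family and 0.152 for the stress response (both libraries left out). Leaving out 1 library gave medians of 1.023 to 1.393 for fatty acids, 0.06 to 0.168 for erythroid factors, 0.018 to 0.129 for the BCL2 family, 0.059 to 0.147 for the stress response and 0.052 to 0.097 for autophagy. The ranges were -0.063 to -0.011 for heme and globin, 0.059 to 0.143 for the membrane and 0.077 to 0.148 for efflux. They were 0.137 to 0.231 for interferon, 0.019 to 0.188 for estrogen receptor targets and -0.118 to -0.063 for MYC and G1. Medians whose sign changed when 1 library was left out were those of ribosome biogenesis (-0.088 to 0.059), GATA factors (-0.043 to 0.088), ER chaperones (-0.029 to 0.064), glycolysis (-0.023 to 0.045) and iron (-0.011 to 0.045). The cause was not tested.

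The header numbers 1, 3 and 5 occur in both groups. Deviations of same-numbered libraries correlated at -0.0109, 0.033 and 0.0674, and those of differently numbered pairs at -0.0724 to 0.0546. With 3 libraries per group, these values cannot tell whether the number marks a shared culture or batch. With the number as a replicate block in a fit of the 6 libraries, 2263 genes were called, against 2057 in that fit without it.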

Other observations

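Other gene groups, written as lists after the comparison had been looked at, are given as counts and values without a test of the list. Of 35 tested lysosomal proteins, 20 were higher in SREBP2 than in Vector+EST and none was lower, beside 14.4% and 8.96% of all genes tested (median log2 difference 0.20). Scpep1, a serine carboxypeptidase, was at 17.2, 16 and 16.3 CPM in SREBP2 and 5.46, 4.39 and 4.83 CPM in Vector+EST (1.75 ± 0.09, adjusted p = 3.14e-10). Arsa, which removes sulfate from sulfatides, was at 71.4, 72.8 and 71.4 against 33.4, 33.9 and 33.1 CPM (1.10 ± 0.04), and Lamp2, a membrane protein of the lysosome, was higher by 0.62 ± 0.04. Tfeb, the transcription factor best known for these genes, had a log2 difference of 0.09 (95% interval -0.15 to 0.32).

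In the NF-kB list 4 of 12 genes were higher and 1 lower, or 5 and none without SREBP2 library 1, beside 14.4% and 8.96% of all genes, and the higher ones included factors themselves. Relb was at 10.2, 10.9 and 11 CPM against 2.06, 1.99 and 1.91 CPM (2.42 ± 0.12, adjusted p = 9.53e-11), Rel differed by 2.15 ± 0.15 and Nfkb2 by 0.77 ± 0.05, while Nfkbia, a feedback inhibitor, had 0.08 (95% interval -0.20 to 0.37). Of 16 immediate early genes 8 were higher and 3 lower (8 and 2 without SREBP2 library 1), beside the same shares. Klf10 was at 18.3, 24.3 and 23.9 against 5.1, 4.13 and 4.72 CPM (2.25 ± 0.15) and Egr1 differed by 0.92 ± 0.15, whereas Fosb was lower at 3.81, 4.5 and 2.71 against 6.8, 6.8 and 7.54 CPM (-0.94 ± 0.22, adjusted p = 0.00475).

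Of 13 genes that supply NADPH, the reductant of lipid synthesis, 6 were higher and 2 lower, or 7 and none without SREBP2 library 1, beside 14.4% and 8.96% of all genes. Idh1, the cytosolic isocitrate dehydrogenase, was at 299, 299 and 313 CPM against 59.4, 59.6 and 61.5 CPM (2.34 ± 0.04, adjusted p = 4.02e-16) and Me1, the malic enzyme, differed by 1.72 ± 0.05. G6pdx, which opens the pentose phosphate pathway, had 0.09 (95% interval 0.01 to 0.16; adjusted p = 0.0474 without SREBP2 library 1), and the next dehydrogenase Pgd was higher by 0.96 ± 0.06. Of 21 phospholipid genes 8 were higher and 1 lower (11 and 1 without SREBP2 library 1, 10 and none without Vector+EST library 5 as well), beside the same shares, with Lpin1, a phosphatidate phosphatase, at 1.29 ± 0.04 and Pcyt2, of phosphatidylethanolamine synthesis, at 1.14 ± 0.05. The biological coefficient of variation was 6.69% within SREBP2 and 3.28% within Vector+EST.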
